A study of Homo sapiens with 18 samples.

Results

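The nuclear pore is a ring of nucleoporins set in the nuclear envelope, and karyopherins are the soluble receptors that carry proteins and some RNAs through it. Messenger RNA (mRNA) and ribosome footprints of 47 such genes, 29 nucleoporins and 18 karyopherins, were followed among the 38716 gene symbols of the deposited tables. The members were listed by name as nucleoporins, importins and exportins, a list drawn up with earlier results of these data known, and no measured value entered the rule. The main import and export receptors KPNB1, KPNA2, XPO1, TNPO1 and CSE1L were not members and are described with the Ran cycle below.

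The cells were IMR90 fibroblasts, derived from human fetal lung, a line that stops dividing after a limited number of passages. Young cells were proliferating cells at low passage, old cells had reached replicative senescence, and ICM cells had been given inflachromene at low passage for several days. Inflachromene is a ligand of HMGB1 and HMGB2, which are DNA-bending proteins of chromatin. Each of these 3 conditions had 3 replicates, and each replicate gave an mRNA-seq library from poly(A) RNA and a Ribo-seq library (ribosome-protected fragments) from the same cycloheximide lysate. One cell line stands for the process, the labels give no vehicle control for the young cells, and both comparisons with young cells use the same young libraries.

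The pore has a layered build. The outer ring, made of copies of the Y complex, lies on both faces of the envelope, the inner ring and the membrane proteins anchor it at the fused membranes, nucleoporins with phenylalanine-glycine repeats fill the central channel, filaments reach into the cytoplasm, and a basket hangs into the nucleus. Beta-type importins and exportins bind cargo and the small GTPase Ran, whereas importin alpha proteins are adaptors that recognise the classical nuclear localisation signal. Pores are assembled both at the end of mitosis and into the growing envelope of interphase nuclei, and both routes are active in dividing cells.

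Depth separated the assays. Coding-gene reads per mRNA-seq library ran from 7902427 to 14144455, of which 11348 to 19077 fell in nucleoporins and 15309 to 23872 in karyopherins. CDS footprints per Ribo-seq library ran from 46239 to 1718521, with 72 to 4329 in nucleoporins, and a library held between 3 and 46 members with at least 10 reads. The Ribo-seq libraries of young replicate 1 and old replicate 2 stood apart, with 34.4% and 15.0% of reads in the CDS, against 54.7% or more in the others. All 8 fibroblast markers were detected in every mRNA-seq library, while the summed level of 4 epithelial markers stayed at or below 1.74 CPM (counts scaled to library size with TMM, the trimmed mean method of edgeR). Endothelial markers summed to 0.610 to 0.667 CPM in young, 0.834 to 1.04 in old and 3.53 to 4.41 in ICM libraries, and blood markers to 21.9 to 23.8, 36.0 to 41.7 and 53.2 to 65.4. These sums followed single genes. In young, old and ICM cells, CD68 of the blood list had means of 20.6, 33.2 and 58.6 CPM. HBB was at 2.44, 5.56 and 0.137 and PTPRC at 0.0899, 0.0803 and 0.103. Of the endothelial list, VWF was at 0.340, 0.690 and 3.38, PECAM1 at 0.293, 0.257 and 0.468, and CDH5 at 0 throughout. Fibroblast markers summed to between 29782.7 and 34043.8 CPM in young, 27511.8 and 31476.7 in old and 11269 and 11593.5 in ICM libraries. Markers of proliferation also moved with condition. The sum of 10 such genes was 823.07 to 851.7 CPM in young, 244.697 to 271.722 in old and 81.3106 to 87.2442 in ICM libraries. The part of these shifts in the results below was not tested.

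Levels were first compared between members within young cells, as CDS reads per kilobase of coding sequence, scaled to library size (RPKM). SEC13, a Y complex subunit that also forms part of the COPII vesicle coat, was the highest member in both assays, at 303.6 ± 15.0 in mRNA-seq and 297.9 ± 27.3 in Ribo-seq (SD, n = 3). The next in mRNA-seq were IPO5 (120.5 ± 6.2), which imports ribosomal proteins and histones, XPOT (109.7 ± 1.5), the tRNA exporter, and XPO6 (98.5 ± 0.7), the exporter of actin. Next in Ribo-seq were KPNA4 (119.6 ± 5.8) and IPO5 (112.7 ± 30.9), which did not differ beyond their spread. XPO6 was only the 33rd member by footprints, at 20.4 ± 3.5. At the low end stood AHCTF1, which seeds pores on chromatin, with 6.8 ± 0.6 in mRNA-seq, and RANBP2, the large protein of the cytoplasmic filaments, with 7.5 ± 1.1.

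**Figure D1:**
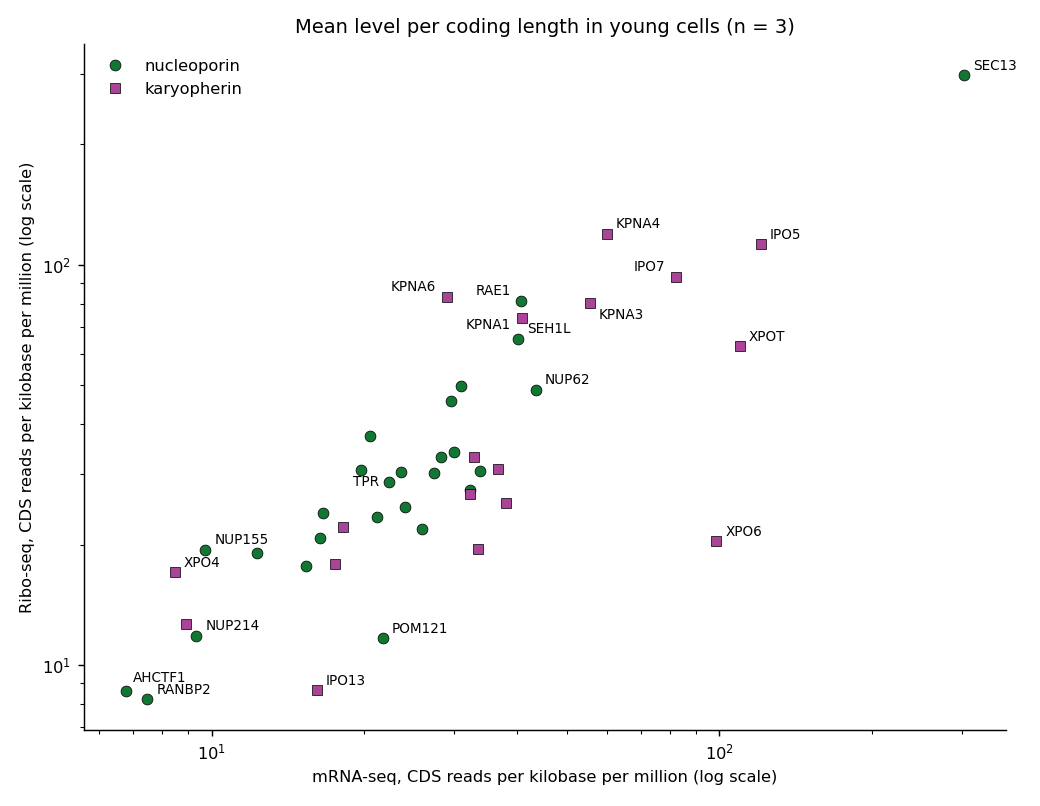
Mean level per coding length of 45 members in young cells, mRNA-seq on the x axis and Ribo-seq on the y axis, both in RPKM of the CDS on log scales. NUP210, which is near 0, and POM121C, whose lifted coding sequence is incomplete, are left out, and XPO6 lies low in Ribo-seq for its mRNA level.

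NUP210, a glycoprotein of the pore membrane (GRCh37 chr3:13357735-13461822), was close to absent. Its mRNA-seq reads were 3, 2 and 1 in young replicates, against 0, 1 and 0 in old ones and again 0, 1 and 0 with ICM. Ribo-seq held 1 CDS read in all 9 libraries together. It was the only member that did not pass the filter on low counts in mRNA-seq, and 46 members were tested there.

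The comparison of old with young cells asks what replicative senescence does to these transcripts. Of 28 nucleoporins tested, 25 fell, 0 rose and 3 did not pass the test (edgeR quasi-likelihood test, Benjamini-Hochberg adjusted p under 0.05 over all 13173 genes). Of 18 karyopherins, 12 fell, 2 rose and 4 did not pass. Among all genes 33.7% fell and 32.4% rose. The median log2 change was -0.59 for nucleoporins, -0.41 for karyopherins and -0.01 for all genes tested. All 25 nucleoporins that fell were lower without overlap between groups, as were 31.9% of all genes tested and 94.8% of all genes that fell. In bulk RNA, fewer transcripts per cell and fewer cells that make them cannot be told apart. Levels are scaled to library size, so falls and rises are relative to the other mRNA of a library and are not amounts per cell.

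**Figure D2:**
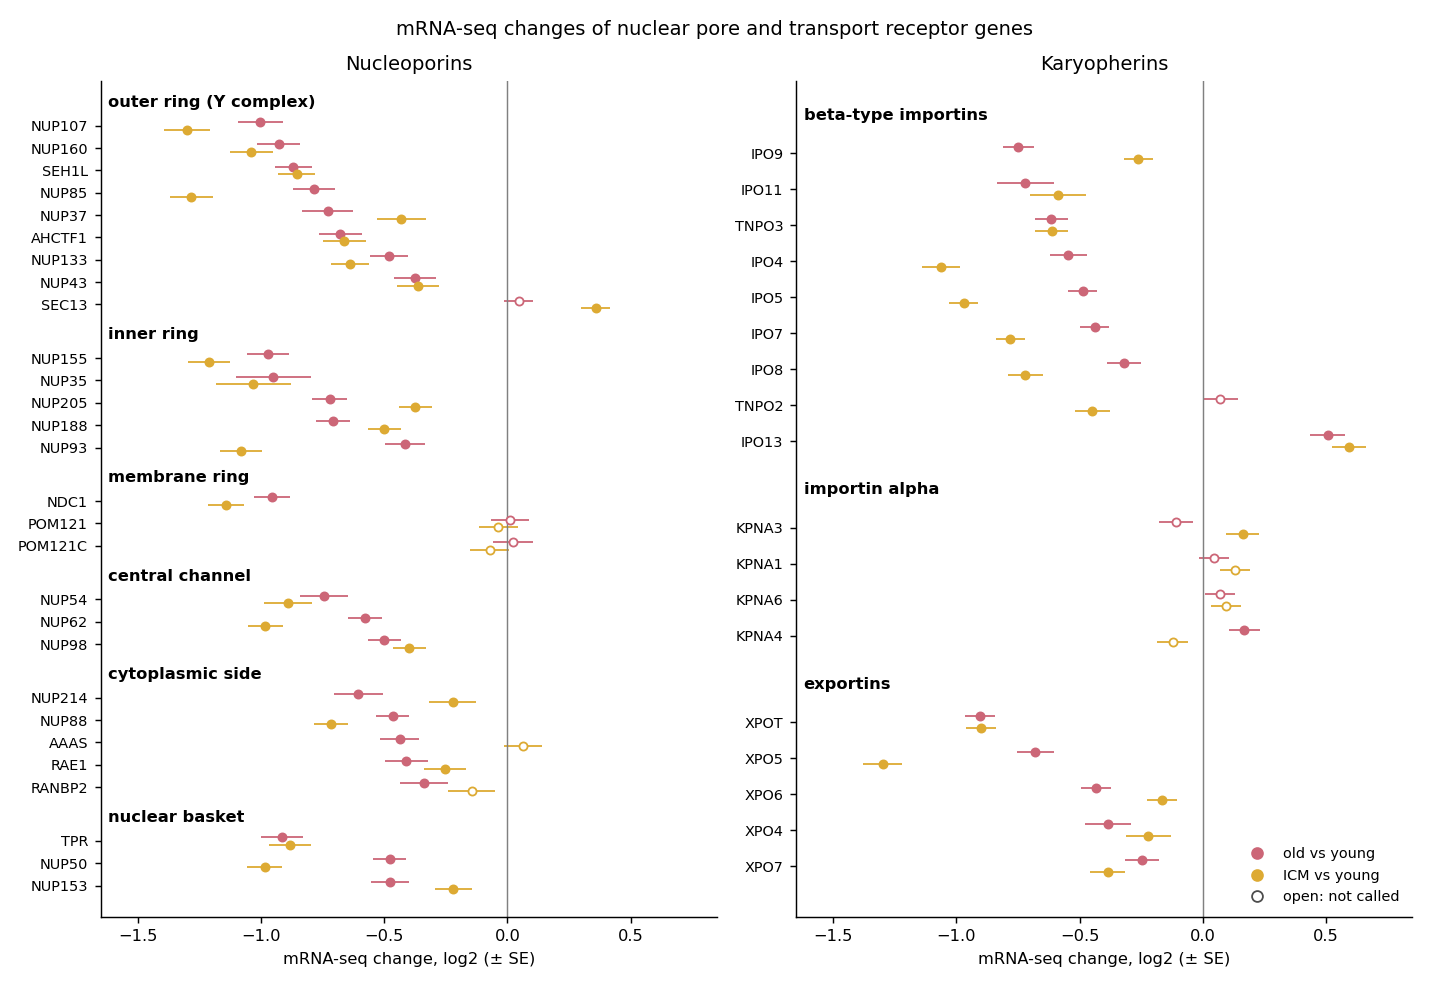
Log2 change in mRNA-seq of the 46 tested members, old vs young (red) and ICM vs young (yellow), with SE bars from edgeR, by structural group; open points did not pass an adjusted p of 0.05. Most points lie left of 0, with SEC13, the POM121 genes, the importin alpha genes and IPO13 at or right of it.

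Within the pore, the fall in old cells covered the inner ring (5 of 5), the central channel (3 of 3), the nuclear basket (3 of 3), the cytoplasmic side (5 of 5) and the outer ring (8 of 9). In the membrane ring only NDC1 fell, 1 of 3 tested. The 3 nucleoporins with the largest falls were NUP107, NUP155 and NDC1. NUP107, a core subunit of the Y complex (GRCh37 chr12:69080731-69139589), was at 35.6, 38.1 and 41.0 CPM in young, 18.5, 21.4 and 17.1 in old and 15.0, 16.6 and 15.3 in ICM libraries. The highest old library lay well under the lowest young one. Its log2 change in old cells was -1.0 ± 0.09 (SE), or 0.499 times the young level (adjusted p = 2.5e-09). NUP155, an inner ring protein that binds the membrane, fell by 0.97 ± 0.08 on the log2 scale (adjusted p = 9.9e-10), from 32.4, 34.3 and 34.7 CPM to 18.3, 16.3 and 17.4. NDC1, the transmembrane anchor of the pore, fell by 0.96 ± 0.07 (adjusted p = 1.1e-10), with 59.6, 58.0 and 64.5 CPM in young and 31.3, 30.8 and 31.9 in old libraries. For NUP155 and NDC1, too, young and old libraries did not overlap.

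Other members of the same layers fell less. In the outer ring NUP160, SEH1L, NUP85, NUP37, AHCTF1, NUP133 and NUP43 had log2 changes between -0.93 and -0.37 in old cells. The inner ring genes NUP35, NUP205, NUP188 and NUP93 lay between -0.95 and -0.42, the channel genes NUP54 and NUP62 at -0.74 and -0.58, and the cytoplasmic genes NUP214, NUP88, AAAS and RAE1 between -0.60 and -0.41. NUP50, a mobile basket protein that helps to release importin alpha cargo, changed by -0.48.

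TPR forms the filaments of the basket (GRCh37 chr1:186280784-186344825). Its mRNA was at 91.3, 103 and 114 CPM in young, 57.1, 48.8 and 58.3 in old and 52.7, 61.7 and 53.1 in ICM libraries. It fell by 0.92 ± 0.09 in old cells (adjusted p = 4.1e-09) and by 0.88 ± 0.09 in ICM cells (adjusted p = 4.5e-09), and old and ICM libraries overlapped. NUP153, which ties the basket to the ring, changed less, by -0.48 ± 0.08 in old (adjusted p = 1.2e-05) and by -0.22 ± 0.08 in ICM cells (adjusted p = 0.013). The NUP153 levels were 62.4, 73.2 and 75.6 CPM in young, 52.1, 46.9 and 53.9 in old and 59.4, 62.5 and 60.2 in ICM libraries, so that 1 ICM library stood above the lowest young one. The ICM call of NUP153 was lost with CDS reads only and without young replicate 2, young replicate 3 or ICM replicate 1.

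NUP98, a channel protein that also binds genes in the nucleoplasm, was at 96.3, 95.2 and 105 CPM in young, 73.9, 64.9 and 71.7 in old and 75.6, 74.5 and 75.0 in ICM libraries. Its changes were -0.50 ± 0.07 in old (adjusted p = 9.5e-07) and -0.40 ± 0.07 in ICM cells (adjusted p = 1.4e-05). RANBP2, which binds Ran and SUMO-modified RANGAP1 at the cytoplasmic face, was at 41.9, 47.9 and 56.1 CPM in young, 32.5, 40.9 and 41.8 in old and 44.7, 44.6 and 43.4 in ICM libraries. It fell by 0.34 ± 0.10 in old cells (adjusted p = 0.0041), a call lost without young replicate 3, and did not pass the test in ICM cells (-0.14 ± 0.10, adjusted p = 0.18). The RGPD genes are near copies of RANBP2, so its reads are uncertain.

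Among karyopherins in old cells, the beta-type importins counted 7 lower and 1 higher of 9, the exportins 5 lower of 5, and the importin alpha genes 0 lower and 1 higher of 4. XPOT was at 255, 252 and 260 CPM in young, 130, 144 and 136 in old and 136, 142 and 133 in ICM libraries. It fell by 0.91 ± 0.06 in old (adjusted p = 1.4e-11) and by 0.90 ± 0.06 in ICM cells (adjusted p = 8.6e-12), and neither group reached the young range. IPO9, an importer of histones and actin, fell by 0.75 ± 0.06 in old cells (adjusted p = 5.3e-10), from 96.5, 98.0 and 98.3 CPM to 56.1, 57.6 and 60.4. IPO7, which imports ribosomal proteins and signalling factors, fell from 215, 212 and 226 CPM to 155, 163 and 163, a log2 change of -0.44 ± 0.06 (adjusted p = 8.2e-07). The remaining importins IPO11, TNPO3, IPO4, IPO5 and IPO8 had changes between -0.72 and -0.32, and the exportins XPO6, XPO4 and XPO7 between -0.43 and -0.25.

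Few members stood against this direction in old cells. IPO13, a beta-type receptor that works in both directions, rose by 0.51 ± 0.07 (adjusted p = 1.5e-06), from 35.2, 35.7 and 34.3 CPM to 49.6, 48.3 and 51.7. KPNA4, an importin alpha that carries NF-kappaB, rose by 0.17 ± 0.06 (adjusted p = 0.022), a call that was lost without young replicate 2. POM121 and POM121C, near-identical membrane nucleoporins whose reads may be shared, had changes of 0.01 and 0.02 with SE of 0.08, and TNPO2, KPNA1, KPNA3, KPNA6 and SEC13 did not pass the test either.

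ICM and young cells were compared to learn what the ligand of HMGB1 and HMGB2 does in cells that had not been aged. Of 28 nucleoporins 23 fell, 1 rose and 4 did not pass, and of 18 karyopherins 13 fell, 2 rose and 3 did not pass. In this comparison 36.1% of all genes fell and 34.9% rose. Median log2 changes were -0.65 for nucleoporins, -0.42 for karyopherins and -0.01 for all genes. The inner ring (5 of 5), central channel (3 of 3), nuclear basket (3 of 3), outer ring (8 of 9), exportins (5 of 5) and beta-type importins (8 of 9) held most of the lower members. Fewer fell on the cytoplasmic side (3 of 5), in the membrane ring (1 of 3 tested) and among importin alpha genes (0 of 4).

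NUP107 fell by 1.30 ± 0.09 in ICM cells (adjusted p = 2.9e-11), to 0.407 times the young level. NUP85, another Y complex subunit, fell by 1.28 ± 0.09 (adjusted p = 1.4e-11), from 32.4, 32.2 and 32.5 CPM to 12.5, 13.5 and 14.0, and NUP155 fell by 1.21 ± 0.08 (adjusted p = 1.8e-11), to 14.6, 14.2 and 14.9 CPM. None of their ICM libraries came near the young range. XPO5, the exporter of microRNA precursors (GRCh37 chr6:43490072-43543775), was at 58.1, 53.8 and 56.8 CPM in young, 32.8, 36.3 and 35.8 in old and 24.2, 22.5 and 21.6 in ICM libraries. The 3 groups of XPO5 did not overlap, and its log2 change was -1.30 ± 0.08 in ICM (adjusted p = 9.9e-13) and -0.68 ± 0.07 in old cells (adjusted p = 4.1e-08). IPO4, an importer of histones, fell by 1.06 ± 0.08 in ICM cells (adjusted p = 3.2e-11), from 68.6, 70.4 and 68.4 CPM to 33.9, 33.7 and 31.7. IPO7 fell by 0.78 ± 0.06 (adjusted p = 6.5e-11), to 127, 127 and 125 CPM.

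The other nucleoporins that fell in ICM cells had log2 changes from -1.14 (NDC1) through -1.08 (NUP93), -1.04 (NUP160), -1.03 (NUP35), -0.98 (NUP50 and NUP62), -0.89 (NUP54), -0.85 (SEH1L), -0.71 (NUP88), -0.66 (AHCTF1), -0.64 (NUP133), -0.50 (NUP188), -0.43 (NUP37), -0.37 (NUP205), -0.36 (NUP43) and -0.25 (RAE1) to -0.22 (NUP214). The NUP214 call was lost with RLE scaling, with DESeq2 with CDS reads only and without young replicate 3 or any 1 ICM replicate, and the RAE1 call was lost without ICM replicate 3. The karyopherins IPO5, IPO8, TNPO3, IPO11, TNPO2, XPO7, IPO9, XPO4 and XPO6 lay between -0.97 and -0.16. The XPO4 call was lost with DESeq2, with CDS reads only and without young replicate 3 or any 1 ICM replicate. The XPO6 call was lost without young replicate 1, young replicate 2, ICM replicate 2 or ICM replicate 3.

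Rises in ICM cells were fewer. SEC13 (GRCh37 chr3:10334815-10362796) was at 226, 237 and 215 CPM in young, 233, 239 and 228 in old and 290, 296 and 284 in ICM libraries, a change of 0.36 ± 0.06 in ICM (adjusted p = 1.4e-05) and of 0.05 ± 0.06 in old cells (adjusted p = 0.52). IPO13 rose by 0.59 ± 0.07 (adjusted p = 9.9e-08), to 51.5, 54.0 and 53.2 CPM. KPNA3, an importin alpha, rose by 0.16 ± 0.07 (adjusted p = 0.038), but its young and ICM libraries overlapped and the call was lost without young replicate 1, young replicate 2, ICM replicate 1 or ICM replicate 3. KPNA1, KPNA4, KPNA6, POM121, POM121C, RANBP2 and AAAS did not pass the test, with log2 changes between -0.14 and 0.13.

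**Figure D3:**
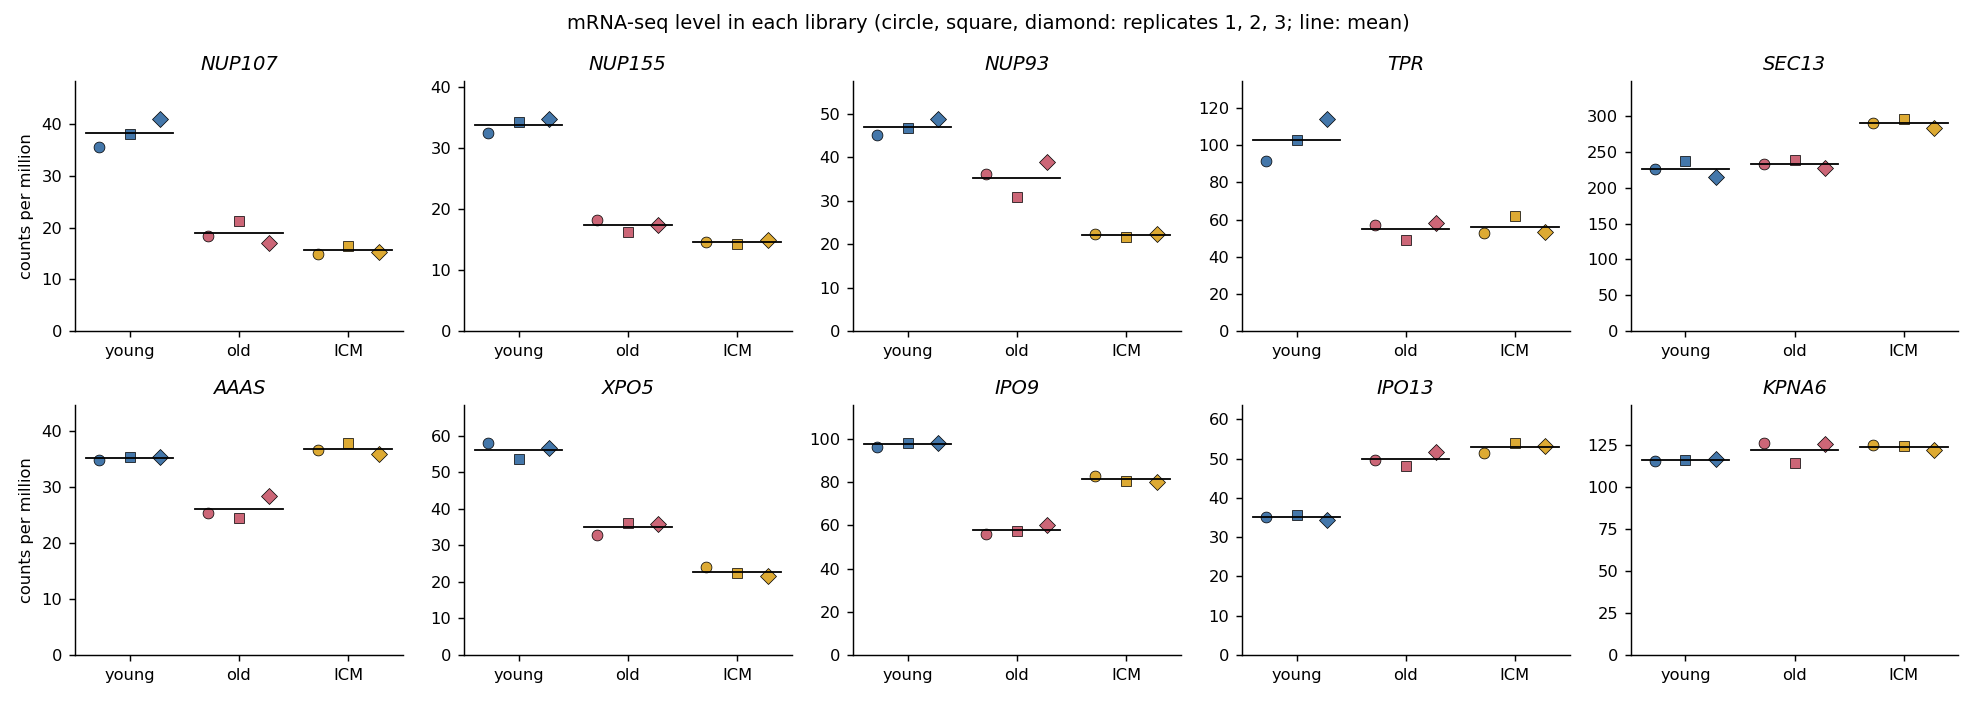
CPM in each mRNA-seq library for 10 members, with a symbol for each replicate and a line at the mean of 3. NUP107, NUP155 and TPR are lower in both old and ICM libraries, AAAS is lower in old libraries alone, SEC13 is higher in ICM libraries, IPO13 is higher in both, and the old libraries of KPNA6 span its young range.

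Old and ICM cells were then compared directly. Of 28 nucleoporins 7 were higher and 8 lower in ICM cells and 13 did not pass, and of 18 karyopherins 3 were higher, 7 lower and 8 did not pass. Among all genes 30.7% were higher and 32.6% lower. The median was -0.02 for nucleoporins and 0.00 for karyopherins, so members of one ring differed from each other here. In the inner ring NUP93 was lower in ICM than in old cells by 0.66 ± 0.09 on the log2 scale (adjusted p = 8.1e-07), at 22.5, 21.6 and 22.5 CPM against 36.2, 31.0 and 38.8, while NUP205 (0.35 ± 0.07) and NUP188 (0.21 ± 0.07) were higher. In the outer ring NUP85 (-0.50) and NUP107 (-0.29) were lower, and SEC13 (0.31) and NUP37 (0.30) were higher. The calls were lost for NUP107 without old replicate 2 or ICM replicate 1, for NUP188 without old replicate 1 or ICM replicate 3, and for NUP37 with DESeq2, with CDS reads only and without old replicate 3. In the basket NUP50 differed by -0.51 ± 0.07 (adjusted p = 1.8e-06), at 36.8, 36.5 and 36.4 CPM in ICM and 51.2, 48.9 and 56.0 in old libraries, and NUP153 by 0.26 ± 0.08 (adjusted p = 0.0062).

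AAAS, a nucleoporin of the cytoplasmic side, had the largest positive difference. Its levels were 34.9, 35.3 and 35.4 CPM in young, 25.4, 24.4 and 28.4 in old and 36.6, 37.8 and 35.9 in ICM libraries, a log2 difference between ICM and old of 0.50 ± 0.08 (adjusted p = 8.5e-06). Old libraries lay under both other groups. NUP214 (0.38) was also higher in ICM cells, while NUP62 (-0.40), NUP88 (-0.25), NUP155 (-0.24) and NDC1 (-0.19) were lower. The calls of NUP155 and NDC1 here were lost with DESeq2, with only the compared groups in the fit and without old replicate 1, old replicate 3, ICM replicate 1 or ICM replicate 2, and that of NDC1 also with no filter and without ICM replicate 3. TPR, NUP98 and RANBP2 did not pass, at 0.03 ± 0.09, 0.10 ± 0.07 and 0.20 ± 0.10.

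Among karyopherins, XPO5 was lower in ICM than in old cells by 0.62 ± 0.08 (adjusted p = 6.0e-07). TNPO2, a transportin for RNA-binding proteins, was lower by 0.52 ± 0.07 (adjusted p = 1.1e-06), at 64.8, 67.4 and 66.1 CPM in ICM against 98.9, 85.5 and 101 in old libraries. IPO4 (-0.52), IPO5 (-0.48), IPO8 (-0.40), IPO7 (-0.34) and KPNA4 (-0.29) were lower too. IPO9 was higher in ICM cells by 0.49 ± 0.06, as were KPNA3 (0.27) and XPO6 (0.27). XPOT, at 0.01 ± 0.06 (adjusted p = 0.94), did not pass.

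Levels were also summed over each structural group. Beta-type importins summed to 971.7 ± 17.2 CPM in young, 737.6 ± 10.7 in old and 616.2 ± 2.8 in ICM cells (SD, n = 3). Exportins summed to 712.9 ± 2.4, 480.6 ± 4.6 and 502.7 ± 11.9 CPM, and the inner ring to 243.4 ± 5.0, 150.6 ± 7.1 and 152.8 ± 3.8. The importin alpha members, at 418.8 ± 14.1, 434.4 ± 4.7 and 436.9 ± 9.9 CPM, differed by about the spread between replicates. This does not hold for all importin alpha genes. KPNA2, which is outside the members and this sum, had means of 242.5 CPM in young, 136.7 in old and 109.9 in ICM cells. SEC13 makes up much of the outer ring sum, which was 512.5 ± 8.0, 406.7 ± 7.5 and 454.0 ± 5.4 CPM.

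**Figure D4:**
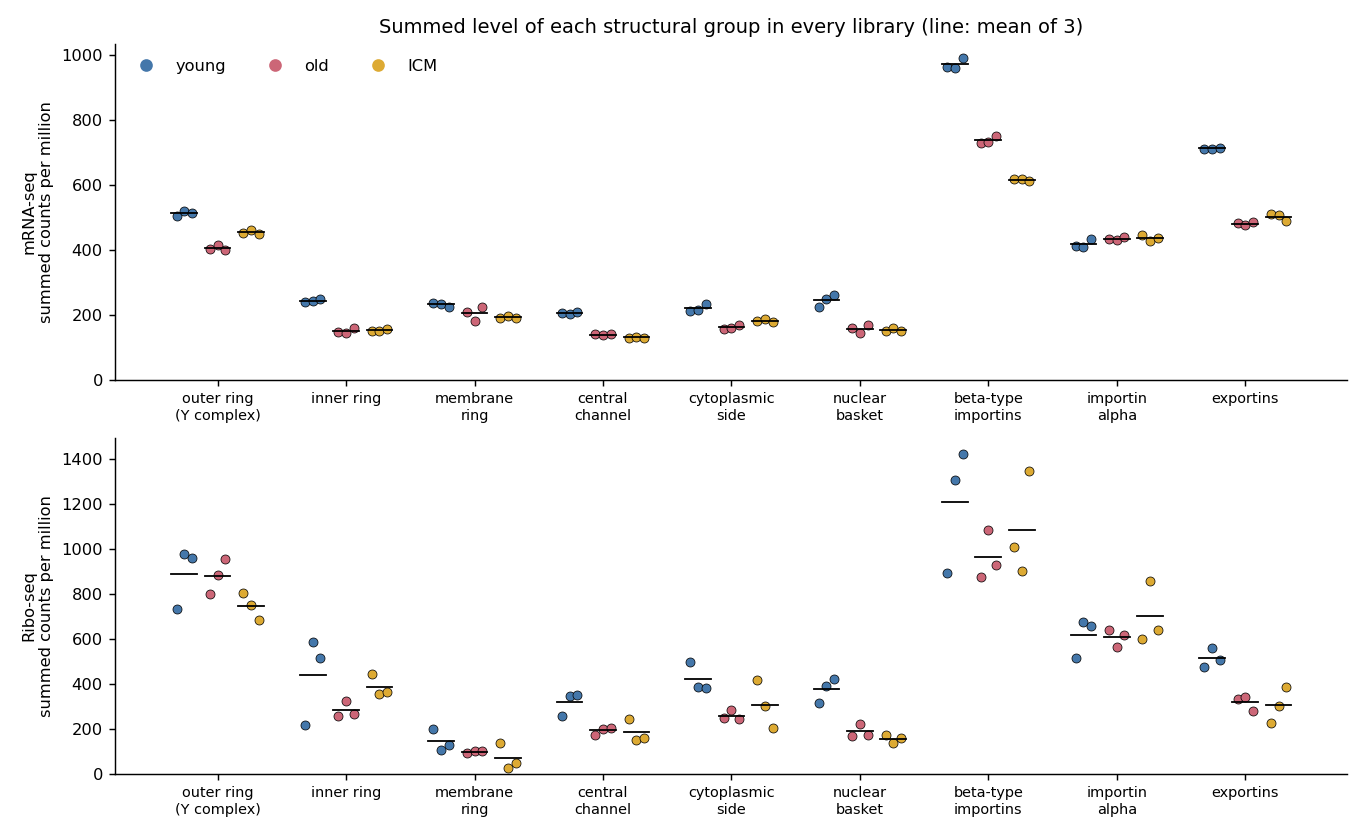
Summed CPM of each structural group in every library, mRNA-seq above and Ribo-seq below, with a line at the mean of 3. Young libraries lie above old and ICM libraries in mRNA-seq in all groups except importin alpha, and the spread between replicates is wider in Ribo-seq.

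Short stretches of promoter are shown as a description only, and whether promoter elements had a part in the falls was not tested. E2F sites, the cell cycle genes homology region (CHR) and sites of NRF1, a factor of housekeeping genes, are elements known from promoters of growth-related genes. RefSeq promoters (GRCh38.p14, 250 bases before to 50 bases after the start) matched 43 of 47 members and were searched on both strands. The E2F letters were TTTCCCGC and TTTGGCGC, found in 1 of 43 members (2.33%) and 2.31% of all 27305 promoters. The CHR letters TTTGAA and TTCGAA, which do not overlap the other motifs, were in 8 members (18.6%) and 16.6% of all promoters. The NRF1 core CGCATGCG was in 4 members (9.30%) and 2.19% of all promoters. The median GC content was 63.3% in members and 58.3% in all promoters. The median number of CG dinucleotides, which the NRF1 core contains, was 26 in members and 14 in all promoters. Every member with a CHR or NRF1 match was among those whose mRNA fell in old cells, but 34 of the 43 matched members fell there, and 9 did not.

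The 4 NRF1 matches began 44 to 83 bases before the start, in IPO11 (chr5:62412699-62412746, plus strand), NUP107 (chr12:68686875-68686922, plus), NUP50 (chr22:45163850-45163897, plus) and NUP62 (chr19:49929535-49929582, minus). With the motif in capitals and 20 bases on each side, 5′ to 3′, they read:
IPO11: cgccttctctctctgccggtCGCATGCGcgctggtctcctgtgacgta
NUP107: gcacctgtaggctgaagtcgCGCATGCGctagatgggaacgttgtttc
NUP50: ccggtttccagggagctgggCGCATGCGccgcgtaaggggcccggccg
NUP62: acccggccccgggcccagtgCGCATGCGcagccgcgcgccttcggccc

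In NDC1 (chr1:53838297-53838356, minus strand) and NUP35 (chr2:183124383-183124442, plus), the CHR letters began 31 and 35 bases before the start. Only these matches, the nearest to the start, are shown. The other CHR matches began 66 to 241 bases before the start, among them another in NDC1 at 228 bases. For NDC1 and NUP35 the last 60 bases before the start, with these CHR letters in capitals, were:
NDC1: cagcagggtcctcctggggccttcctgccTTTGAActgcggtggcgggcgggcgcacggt
NUP35: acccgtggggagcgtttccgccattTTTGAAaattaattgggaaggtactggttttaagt

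The genes around these members were counted from lists of the same pathway. Among all genes tested 36.1% fell and 34.9% rose in ICM cells, and 33.7% fell and 32.4% rose in old cells. Of 11 genes of the Ran cycle and the main receptors, 8 fell and 1 rose in ICM cells and 7 fell and 1 rose in old cells. KPNB1, importin beta, fell by 0.89 ± 0.06 in ICM and by 0.57 ± 0.06 in old cells, and RCC1, the exchange factor that charges Ran with GTP, fell by 1.5 and 1.43. Mean levels in young, old and ICM cells were 242.5, 136.7 and 109.9 CPM for KPNA2. They were 173.5, 99.8 and 100.1 for XPO1 and 135.3, 73.9 and 50.6 for CSE1L. For each of these genes every young library lay above every old and ICM library. TNPO1, transportin 1, rose by 1.58 ± 0.07 in ICM cells (adjusted p = 2.4e-15), where its relative TNPO2 fell by 0.45, and its change in old cells was -0.02 ± 0.07. NUTF2, which carries Ran into the nucleus, fell by 0.60 in ICM and rose by 0.18 in old cells. Of 17 mRNA export genes 13 fell and 1 rose in ICM cells, and 13 fell and 0 rose in old cells. Of 8 other pore and receptor genes 6 could be tested, of which 1 fell and 0 rose in ICM cells, and 2 fell and 2 rose in old cells. The counts in old cells are 33.3% each, near the shares of all genes.

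Ribosome footprints ask whether ribosome occupancy of these transcripts moved too. Of the members 39 passed the filter in Ribo-seq, and NUP35, NUP50, NUP85, NUP210, POM121, POM121C, IPO11 and IPO13 did not. In old against young cells 14 of 23 nucleoporins fell and 1 rose, and 7 of 16 karyopherins fell and 0 rose, against 17% of all 4643 genes that fell and 19.3% that rose. Of the 21 members that fell, 9 were lower without overlap between groups (42.9%), against 68.1% of all genes that fell. As shares of the genes tested these were 23.1% of members and 11.6% of all genes. The median log2 change was -0.93 for nucleoporins, -0.57 for karyopherins and 0.02 for all genes. These counts rested on single libraries. Of the 22 calls, 3 were left without young replicate 3, 4 without young replicate 2, 5 without old replicate 1 and 11 without old replicate 3, DESeq2 made 3, and without young replicate 1 there were 29. With the replicate number as a block 4 were left, those of TPR, NUP155, XPOT and SEC13. With only the compared groups in the fit 34 members were called.

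TPR had the most footprint reads among nucleoporins that fell. Its Ribo-seq level was 178, 233 and 251 CPM in young (9, 146 and 395 reads), 87.5, 40.2 and 88.3 in old (123, 2 and 43 reads) and 49.3, 54.6 and 68.5 in ICM libraries (10, 4 and 3 reads). Every old and ICM library lay under every young one. The log2 change was -1.48 ± 0.21 in old (adjusted p = 1.5e-06) and -2.15 ± 0.35 in ICM cells (adjusted p = 1.5e-05), and both calls held in all alternatives run.

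NUP155 had 3, 71 and 145 reads in young, 33, 0 and 15 in old and 6, 0 and 0 in ICM libraries, a change of -1.98 ± 0.34 in old (adjusted p = 1.7e-05) and -2.40 ± 0.60 in ICM cells (adjusted p = 0.0027). Both NUP155 calls were lost with DESeq2. NUP160 was at 59.4, 83.1 and 119 CPM in young and 42.0, 0 and 55.4 in old libraries, a change of -1.19 ± 0.31 (adjusted p = 0.0029) that was lost with DESeq2, with the replicate block and without old replicate 1. XPOT was at 178, 217 and 195 CPM in young, 91.0, 101 and 73.9 in old and 98.5, 205 and 320 in ICM libraries. It fell by 1.24 ± 0.24 in old cells (adjusted p = 0.00010) under all alternatives run, and the ICM libraries spanned the young ones (-0.33 ± 0.31, adjusted p = 0.46). XPO4 fell by 1.13 ± 0.35 in old cells (adjusted p = 0.012), with 59.4, 75.1 and 57.9 CPM in young and 31.3, 20.1 and 26.7 in old libraries, a call lost with DESeq2 and with the replicate block.

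The other genes that fell in footprints in old cells were NUP54, NUP205, RANBP2, NUP107, SEH1L, AHCTF1, NUP62, NUP37, NUP153, NUP188 and NUP98 among nucleoporins, and IPO9, IPO4, KPNA3, IPO7 and IPO5 among karyopherins. RANBP2 changed by -1.15 ± 0.28 (adjusted p = 0.0015), NUP153 by -0.93 ± 0.27 (adjusted p = 0.0060), NUP98 by -0.61 ± 0.22 (adjusted p = 0.031) and IPO7 by -0.59 ± 0.21 (adjusted p = 0.027). Old replicate 2, with 4, 8, 9 and 15 reads of these genes, lay above the lowest young library for each of them, and all 4 calls were lost with DESeq2, with the replicate block and without young replicate 2, young replicate 3 or old replicate 1. XPO5 did not pass in old cells (-0.52 ± 0.26, adjusted p = 0.11).

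SEC13 was the member that rose in footprints in old cells. Its Ribo-seq level was 277, 336 and 327 CPM in young (14, 210 and 514 reads), 505, 583 and 585 in old (710, 29 and 285 reads) and 394, 491 and 480 in ICM libraries (80, 36 and 21 reads). The 3 groups of SEC13 did not overlap, with old libraries highest and young lowest. The change was 0.75 ± 0.18 in old cells (adjusted p = 0.0015), called in every alternative run, and 0.43 ± 0.22 in ICM cells (adjusted p = 0.14).

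**Figure D5:**
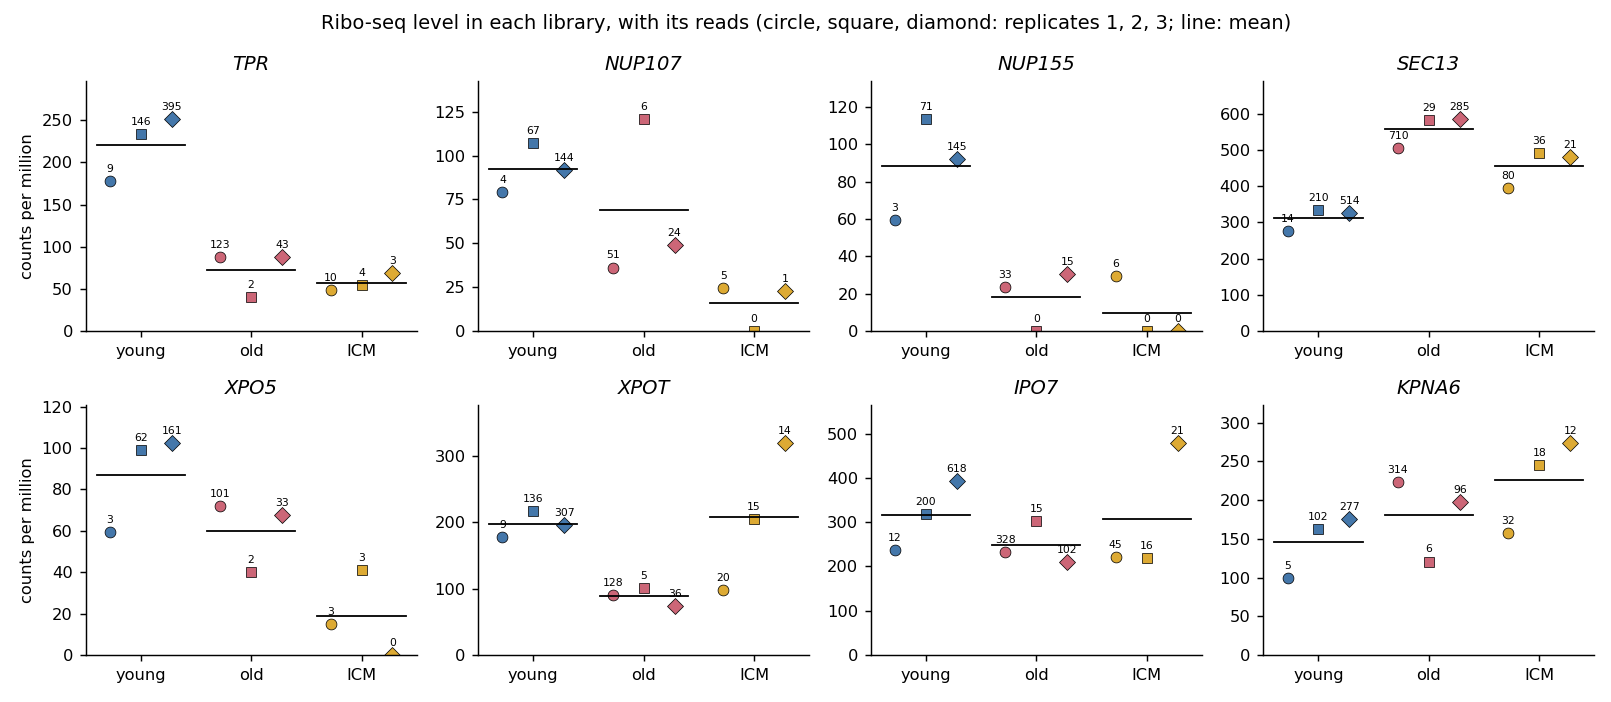
Ribo-seq CPM in each library for 8 members, with the number of reads at each point, a symbol for each replicate and a line at the mean of 3. TPR lies lower in every old and ICM library than in young ones, SEC13 lies higher, and many points of the shallow libraries rest on few reads.

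In ICM against young cells 5 of 39 members fell in Ribo-seq and 0 rose, against 12.9% and 13.7% of all genes. An unadjusted p under 0.05 was found for 11 of the 39 members and for 1728 of all 4643 genes. The 5 that fell were NUP155, XPO5, NUP107, XPO4 and TPR. DESeq2 called 3 members, 2 were called without young replicate 2 or young replicate 3 or with only the compared groups, 8 without young replicate 1, 9 without ICM replicate 2 and 11 without ICM replicate 3. XPO5 had 3, 62 and 161 reads in young and 3, 3 and 0 in ICM libraries, a change of -2.38 ± 0.56 (adjusted p = 0.0014) that was lost without ICM replicate 1. NUP107 had 4, 67 and 144 reads in young and 5, 0 and 1 in ICM libraries, a change of -2.36 ± 0.59 (adjusted p = 0.0027). XPO4 had 3, 47 and 91 reads in young and 2, 0 and 2 in ICM libraries (-2.33 ± 0.71, adjusted p = 0.013), and its call was lost with DESeq2, with the replicate block and without ICM replicate 1. The ICM libraries of all 5 genes lay under the young ones, as they did for 10.2% of all genes tested (called lower, with no overlap). The share of members that fell was 12.8%, near that of all genes.

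Most members were not separable from young cells at the footprint depth of the ICM libraries. NUP98 (-0.73 ± 0.32, adjusted p = 0.085), IPO7 (-0.38 ± 0.26, adjusted p = 0.30), RANBP2 (-0.29 ± 0.38, adjusted p = 0.62) and NUP153 (-0.26 ± 0.36, adjusted p = 0.64) did not pass the test. When the mRNA-seq reads of each lysate were thinned to the footprint total of the same lysate, the mRNA calls of members dropped from 39 to 9 (ICM against young), from 39 to 16 (old against young) and from 25 to 1 (ICM against old).

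Between ICM and old cells 2 members were higher and 1 lower in footprints, against 5.79% and 7.62% of all genes. NUP188, an inner ring scaffold, was at 217, 164 and 160 CPM in ICM and 93.2, 101 and 84.1 in old libraries (1.10 ± 0.30, adjusted p = 0.011), with no overlap. IPO9 differed by 1.29 ± 0.37 (adjusted p = 0.014) and XPO5 by -1.86 ± 0.59 (adjusted p = 0.030), both with overlap between the groups. XPO5 had 6 reads in the ICM libraries together. DESeq2 called 0 members here, as did the test with the replicate block and the test without old replicate 1 or old replicate 3, and 1 was called without ICM replicate 1. An unadjusted p under 0.05 was found for 6 of 39 members and for 1194 of all 4643 genes. TPR (-0.68 ± 0.41), NUP153 (0.68 ± 0.40), RANBP2 (0.87 ± 0.43), NUP98 (-0.12 ± 0.34), IPO7 (0.21 ± 0.27) and XPOT (0.91 ± 0.34) did not pass.

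Translational efficiency, the footprint level relative to the mRNA level of the same lysate, was tested for 39 members through an interaction term. In old against young cells 1 member rose and 0 fell, against 0.801% and 0.671% of 4618 genes. This member was SEC13, at 0.74 ± 0.18 on the log2 scale (adjusted p = 0.026). The SEC13 call was lost with DESeq2, with no filter and without any 1 of the 6 compared replicates, where its log2 value stayed between 0.65 and 0.83. In ICM against young cells 0 members were called, against 0.931% of genes that rose and 1.15% that fell. An unadjusted p under 0.05 was found for 3 of 39 members and for 713 of 4618 genes. The smallest p was that of TPR (-1.23 ± 0.39, adjusted p = 0.091), followed by XPO4 (-2.10 ± 0.74, adjusted p = 0.13) and NUP188 (0.87 ± 0.31, adjusted p = 0.14). TPR in old cells was at -0.54 ± 0.24 (adjusted p = 0.33). XPO5 in ICM against young cells was at -1.18 ± 0.66 (adjusted p = 0.39). DESeq2 also called 0 members. In ICM against old cells 0 members were called, against 0.065% and 0.217% of genes, and DESeq2 called 0. There 6 of 39 members and 483 of 4618 genes had an unadjusted p under 0.05. The median log2 difference in efficiency was -0.05, -0.18 and 0.12 for members and 0.02, 0.03 and -0.02 for all genes in the 3 comparisons, for ICM against young, old against young and ICM against old, respectively.

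Beside SEC13, a gene of the Ran list moved in efficiency. RANBP1, a cofactor of Ran GTP hydrolysis, rose in translational efficiency in old cells by 2.22 ± 0.32 (adjusted p = 1.0e-05). Its footprints rose by 1.64 ± 0.32 in old cells while its mRNA fell by 0.69 ± 0.07, and its Ribo-seq levels, from 219.5 to 356.5 CPM in young and from 338.5 to 1670 in old libraries, overlapped. The alternatives were run on members only. Whether the RANBP1 calls rest on single libraries or hold with DESeq2 was therefore not tested.

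The share of 3′ UTR reads among 3′ UTR and CDS reads of mRNA-seq tells whether the ends of a transcript changed relative to its body. Of 38 members tested, 1 was called against young cells in each comparison. Between ICM and old cells 0 were called, where 7 had an unadjusted p under 0.05, a count not set against all genes here. NUP88, which holds NUP214 at the cytoplasmic face, had 3′ UTR shares of 14.3%, 19.4% and 19.7% in young, 23.1%, 27.7% and 26.0% in old and 25.8%, 28.0% and 30.9% in ICM libraries. Young libraries were the lowest. The ratio relative to the typical gene rose by 0.83 ± 0.16 on the log2 scale in ICM cells (adjusted p = 0.0024), against 3.5% of 9405 genes that rose and 1.64% that fell, and its value in old cells was 0.59 ± 0.16 (adjusted p = 0.074). IPO9 had shares of 26.2%, 24.7% and 22.6% in young, 33.5%, 35% and 34.6% in old and 30.4%, 26.9% and 30.4% in ICM libraries. It rose by 0.63 ± 0.12 in old cells (adjusted p = 0.0057), against 1.17% of genes that rose and 0.553% that fell. The NUP88 and IPO9 calls held in all alternatives run. Between ICM and old cells the background was 1.37% higher and 0.84% lower.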

How the data were processed

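mRNA-seq and Ribo-seq were available for 18 libraries, 3 replicates of each condition, which the study's methods describe as independent. The authors deposited estimated counts per gene symbol, split by region. Per the labels' processing notes, STAR 2.6.0c, featureCounts, DESeq2 and deepTools were used with GRCh37, and how multi-mapped reads were placed is not given in the sources used here. Fractional values, found in at least 1 file for 25 members, were rounded. mRNA was the sum of 5′ UTR, CDS and 3′ UTR reads, and footprints were CDS reads.

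edgeR 4.0.16 (R 4.3.3) was fitted to all 9 libraries of an assay after TMM scaling and filterByExpr, with Benjamini-Hochberg adjustment over all genes and calls at 0.05. Translational efficiency was the interaction of assay and condition with the lysate as a block, because each lysate was divided between assays. The 3′ UTR to CDS ratio was the interaction of region and condition with the library as a block, for genes with a mean of at least 10 reads in each region. A ± beside a log2 change is an SE. The scripts were tested on simulated data. DESeq2 1.42.0 was an alternative, beside other scaling, filters, columns, depths and left-out replicates. Gene positions are from GENCODE lifted to GRCh37.

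Members and lists were chosen with earlier results of these data known. Named in full were the 3 nucleoporins and 2 karyopherins with the largest called change without overlap at a mean of at least 5 CPM in each comparison, members called in efficiency or UTR ratio, and TPR, NUP153, RANBP2, NUP210, NUP98, IPO7, XPO5 and XPOT. IPO13, KPNA3, KPNA4, NUP214, XPO4, XPO6, RAE1, TNPO1 and RANBP1 were singled out after their values were seen.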

Additional observations from a re-analysis of the deposited data

How the results depend on the processing

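Of the values recomputed for named members, 805 kept their direction and side of the threshold, 80 were no longer called, 12 became called and 10 changed sign. Of the 39 ICM vs young, 39 old vs young and 25 ICM vs old calls in mRNA-seq, 22, 19 and 2 had a log2 change over 0.6 in size, 9, 16 and 1 were called after thinning to footprint depth, and leaving out 1 replicate gave 34 to 38, 38 to 40 and 22 to 26. In Ribo-seq, calls numbered 2, 34 and 1 with only the compared groups, against 5, 22 and 3, and 3, 3 and 0 with DESeq2, while no filter gave 1 in ICM vs old, and leaving out young replicate 1 and old replicate 2 together gave 9 in ICM vs young. Leaving out 1 replicate gave 2 to 11, 3 to 29 and 0 to 4 Ribo-seq calls. Efficiency calls in old vs young fell from 1 to 0 with DESeq2, with no filter, without young replicate 1 and old replicate 2 together and without any 1 replicate. At an adjusted p under 0.15 there were 3 efficiency calls in ICM vs young and 1 in ICM vs old. Calls of the 3′ UTR ratio ranged from 1 to 2, 1 to 2 and 0 to 1 without 1 replicate. Except for the lower depth or fewer samples of these alternatives, the cause was not tested.

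Deviations of same-numbered replicates correlated only weakly (r from -0.0928 to 0.129 in mRNA-seq and from 0.0021 to 0.0387 in Ribo-seq), so the numbers were not taken as pairs. In Ribo-seq every such r was positive, and 8 of 9 correlated best with their own number. With the replicate number as a block, calls were 39, 39 and 26 in mRNA-seq, 4, 4 and 0 in Ribo-seq (in old vs young TPR, NUP155, XPOT and SEC13) and 1, 2 and 0 in the 3′ UTR ratio. Deviations of the mRNA-seq and Ribo-seq libraries of the same lysate also correlated only weakly (r from -0.0711 to 0.119). Efficiency without the lysate block gave 3, 3 and 1 calls.

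Sign changes between ICM and old cells after thinning were seen for NUP153 mRNA (-0.050, against 0.26), NUP98 mRNA (-0.70, against 0.10), IPO4 mRNA (0.13, against -0.52), NUP188 mRNA (-0.35, against 0.21) and NUP88 mRNA (0.11, against -0.25), and between ICM and young cells for NUP133 mRNA (0.011, against -0.64). Without 1 replicate, the ICM vs old change ran from -0.053 to 0.081 for TPR mRNA, -0.030 to 0.044 for XPOT mRNA, -0.82 to 0.15 for NUP98 footprints and -0.16 to 0.37 for IPO7 footprints, and the ICM vs young change of XPOT footprints from -0.73 to 0.19. Footprint depth limits what could be detected, most in the ICM libraries.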

Other observations

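Most footprints of these members lay in the CDS. The Ribo-seq libraries held 11, 70 and 98 reads in the 5′ UTRs of members in young, 68, 3 and 7 in old and 9, 1 and 5 in ICM cells, or 0.362% to 5.30% of member CDS reads, against 2.54% to 110.1% over all genes. In the 3′ UTRs they held 8, 10 and 33 reads in young, 74, 25 and 39 in old and 4, 0 and 4 in ICM cells. As a percent of member CDS reads this was 4.01%, 0.304% and 0.393% in young, 1.47%, 12.6% and 2.12% in old and 0.485%, 0% and 2.28% in ICM libraries. Over all genes it was 15.96%, 2.05% and 1.46% in young, 3.84%, 36.4% and 6.02% in old and 1.84%, 2.48% and 3.34% in ICM libraries. Old replicate 2 and then young replicate 1 were highest both in members and over all genes, and old replicates 1 and 3 lay above young replicates 2 and 3 in both. No test was run on these shares.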
